A study of Mus musculus with 15 samples.

Results

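This account covers 44 genes of mitosis, from the kinase that starts it to the proteins that hold, release and separate sister chromatids. The genes were taken by their symbols from a list and make up 44 of the 23412 genes in the deposited count files. All 44 were counted in all 15 libraries, all 44 passed the expression filter that 14508 genes passed, and the smallest count of any of them in any library was 385.

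The libraries hold polyadenylated RNA of mouse embryonic stem cells (mESCs) of the male line v6.5 on gelatinized dishes, in 5 conditions with 3 replicates each. Wild-type siGLO cells received the non-targeting control siRNA siGLO, and wild-type siStag1 cells an siRNA against Stag1. Stag1-/- siGLO and Stag2-/- siGLO are knockout cells given the same control, and Stag2-/- siStag1 cells are Stag2 knockout cells given the Stag1 siRNA, so that both STAG proteins are depleted. All 15 cultures were thus transfected, with 50 nM siRNA, and were collected 48 h later. Each knockout is 1 CRISPR clone, with an in-frame deletion inside a single exon in the Stag1-/- clone and a deletion reaching across several exons in the Stag2-/- clone. The 3 libraries of a condition are therefore replicates of 1 line or clone. The study speaks of biological replicates for wild-type and knockout cells, the sources do not say which steps were done separately, and p-values measure the spread between these libraries.

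Between 14982560 and 19070126 counts fell on genes per library (median 17700059), and 3 counts correspond to 0.157 to 0.200 CPM (counts scaled to the same library total), a floor that covers counting error only. The targeted genes were read first. Stag2 had 2329, 2334 and 2329 normalized counts in wild-type siGLO and fell to 663, 739 and 675 in Stag2-/- siGLO. Stag1 had 2288, 2137 and 2012 in wild-type siGLO, 517, 456 and 353 after the siRNA in wild-type cells and 667, 781 and 629 after it in Stag2-/- cells. The Stag1-/- libraries had 1826, 2368 and 1875 Stag1 counts, which overlap wild type, and Stag1 counts thus do not check the label of that clone, for which the study relied on sequencing of the edited site and on protein blots. The 8 markers of mESCs on the list used here (among them Pou5f1, Sox2 and Nanog) were counted in every condition, at a summed level of 3238 to 5300 CPM over the 15 libraries. Those 8 markers had a median log2 difference of -0.29 in Stag1-/-, -0.26 in Stag2-/- and -1.05 in Stag2-/- siStag1 cells against wild-type siGLO, with 1, 3 and 6 of the 8 called lower. All 6 markers of primitive endoderm on the list fell in both knockouts and in Stag2-/- siStag1. Their sum was 227 to 251 CPM in wild-type siGLO, 18.9 to 30.5 in Stag1-/- siGLO, 41.9 to 67.0 in Stag2-/- siGLO and 49.6 to 65.1 in Stag2-/- siStag1 cells. Of 3 trophoblast markers tested (Cdx2, Hand1 and Krt7), all 3 rose in Stag1-/- siGLO, where the 4 listed summed to 29.0 to 39.5 CPM against 5.26 to 9.05 in wild-type siGLO and 2.67 to 6.87 in the other conditions. Krt7 was called lower in Stag2-/- siGLO. The 5 neural markers summed to 169 to 260 CPM in Stag2-/- siGLO and 192 to 326 in Stag2-/- siStag1 against 110 to 156 in wild-type siGLO, with 3 called higher in the first (Pax6, Tubb3 and Nes), 2 higher in the second and 2 lower in Stag1-/- siGLO (Sox1 and Neurog1). The 5 markers of primitive streak and mesoderm summed to 7.89 to 28.5 CPM and the 7 of feeder fibroblasts to 19.9 to 39.7 CPM over all libraries, with Dcn and Lum at 0 in wild-type siGLO. Single genes of both lists moved. The mesoderm gene T rose from 9.35, 11.2 and 6.78 normalized counts in wild-type siGLO to 80.4, 268 and 35.9 in Stag2-/- siGLO and 52.2, 33.3 and 26.3 in Stag2-/- siStag1, by 3.80 and 2.02 on the log2 scale (SE 0.62 and 0.64, edgeR adjusted p = 0.000521 and 0.0210). Eomes fell by 0.87 and 1.44 in the same conditions (SE 0.24 and 0.25, adjusted p = 0.0180 and 0.000308). Of the fibroblast genes, Col3a1 was called higher in both (2.10 and 1.98, adjusted p = 0.0918 and 0.0807) and Pdgfrb lower in Stag2-/- siGLO (-0.81, adjusted p = 0.0933), each with replicates that overlap wild type. The part of these markers in the results below was not tested. In bulk RNA, fewer cells in mitosis and less RNA of a gene per mitotic cell cannot be told apart.

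Cohesin is a ring-shaped complex that holds sister chromatids together from replication until anaphase, and STAG1 and STAG2 are alternative subunits of it. On chromosome arms most cohesin is removed in prophase, when the kinases PLK1 and Aurora B act and WAPL opens the ring. At centromeres shugoshin keeps cohesin in place with a phosphatase, and sororin protects the rings from WAPL. When every kinetochore is attached, the spindle checkpoint is silenced and the anaphase-promoting complex (APC/C) with its activator CDC20 destroys securin and cyclin B, which frees separase to cut the remaining cohesin. Most of these genes are transcribed mainly in G2 and M phase, and mESCs are known for short gap phases and rapid division.

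Transcription of such genes in G2 and M phase is known to run through the cell cycle genes homology region (CHR), a short promoter element bound by the DREAM and MuvB complexes, often beside CCAAT boxes bound by NF-Y. The promoters below are shown because they put that element beside the genes whose counts are described here. Each line gives 30 bases of the strand of the gene in the 5′ to 3′ direction, with the CHR match nearest the start of transcription in capitals, from the RefSeq promoters of GRCm38.p6. The lines of Cdca5 and Anln each hold 1 further match, in lower case. The members shown are the core pair Cdk1 and Ccnb2 and genes that are described one by one further on.
Cdk1 (chr10:69352910-69352939, minus strand): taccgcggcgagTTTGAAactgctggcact
Ccnb2 (chr9:70421533-70421562, minus strand): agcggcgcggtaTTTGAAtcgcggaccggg
Cdc25b (chr2:131186943-131186972, plus strand): ccgctgttatttTTCGAAtatataaggagg
Plk1 (chr7:122159453-122159482, plus strand): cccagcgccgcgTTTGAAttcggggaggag
Cdc20 (chr4:118437344-118437373, minus strand): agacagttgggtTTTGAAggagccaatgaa
Ube2c (chr2:164769888-164769917, plus strand): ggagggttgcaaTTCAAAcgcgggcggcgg
Sgol1 (chr17:53689271-53689300, minus strand): gtaacgcagaatTTCGAAtgtggcggcggt
Cdca5 (chr19:6085076-6085105, plus strand): gcaatttgaacgTTTGAAgcagcaaagttc
Espl1 (chr15:102296254-102296283, plus strand): tcactagggataTTTGAAaggaggtgctgg
Prc1 (chr7:80294434-80294463, plus strand): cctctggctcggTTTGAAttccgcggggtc
Kif23 (chr9:61946780-61946809, minus strand): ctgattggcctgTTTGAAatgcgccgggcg
Anln (chr9:22389168-22389197, minus strand): ggggcgctgaaaTTCAAAttttgaacggcc
Mki67 (chr7:135716460-135716489, minus strand): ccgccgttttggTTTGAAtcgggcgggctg

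The letters searched were TTTGAA and TTCGAA for the CHR, CCAAT for the NF-Y box and GCGGGAA as an E2F-like site, each on both strands, in windows from 250 bases before to 50 after the start of transcription. A match read on the opposite strand appears as TTCAAA, and TTCGAA reads alike on both strands. None of these motifs contains another, though matches of different motifs may share bases at their ends. Promoters were found for 37 of the 44 genes, 41 promoters in all. The CHR letters were in 31 of these 41 promoters (75.6%), against 19.2% of all 32851 promoters. Matches starting within 50 bases of the start were in 28 (68.3%) against 5.31%, CCAAT in 32 (78.0%) against 37.4%, and CHR and CCAAT together in 27 (65.9%) against 7.52%. The E2F-like letters were in 1 (2.44%) against 4.60%. By gene, 9 of the 37 had no CHR match in any window, and these were Ccnb1, Nek2, Birc5, Mad2l1, Sgol2, Pttg1, Cenpe, Nuf2 and Nusap1. A match is a description of the letters in the window and does not show that a factor binds.

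In wild-type siGLO cells the 44 genes spanned 6.70 to 209 CPM per kb of exon, with a median of 33.5 CPM per kb. All 44 were above 4.93 CPM per kb, the median of the 14403 genes tested that had an exon length. Cdc20, the APC/C activator, had the highest level, with 216, 210 and 200 CPM per kb in the 3 replicates. Top2a, which untangles sister DNA, followed with 138, 148 and 149, and Ccnb1, the cyclin B that activates CDK1, with 126, 119 and 111. The lowest level was that of Cdc25c, a phosphatase that switches CDK1 on, with 6.18, 7.03 and 6.91 CPM per kb. Of the 43 neighbouring pairs in this order, 33 had overlapping replicates, so most of the order is not resolved, but Cdc20, Top2a and Ccnb1 did not overlap each other. Exon lengths are those of all annotated exons of a gene joined, which makes these levels low for genes with many alternative ends.

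**Figure D1:**
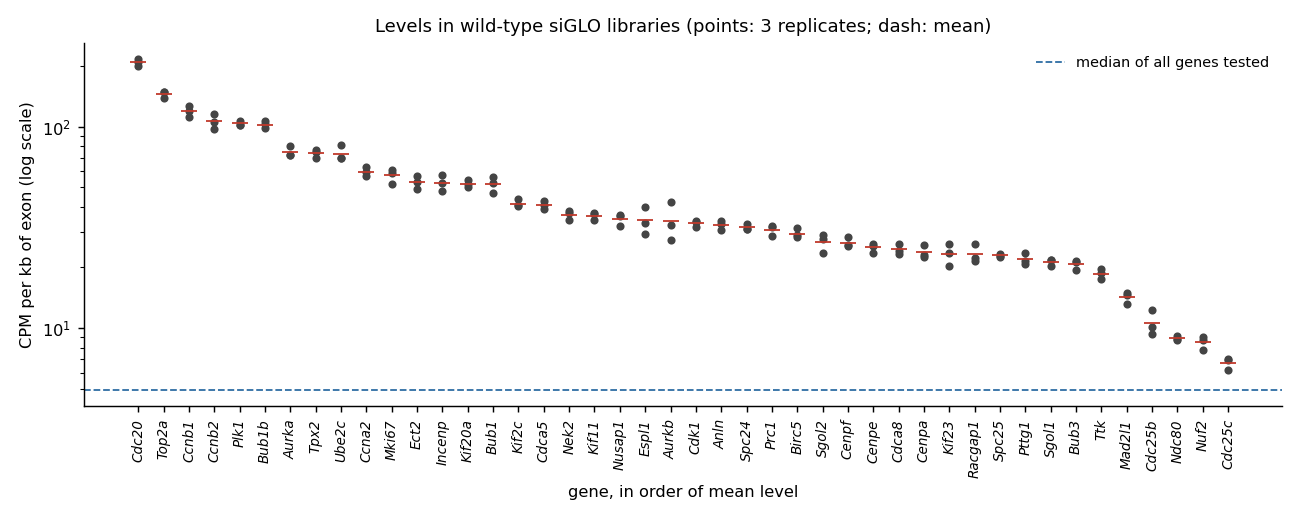
Levels of the 44 genes in wild-type siGLO cells, as CPM per kb of exon on a log axis, with a point for each of the 3 replicates, a dash for the mean and genes in order of mean level. The levels run from 209 CPM per kb for Cdc20 to 6.70 for Cdc25c, all above the dashed line at 4.93, the median of all genes tested.

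Summed over the 44 genes, wild-type siGLO libraries had 9528, 9975 and 10013 CPM. Stag1-/- siGLO libraries had 10464, 11585 and 10844 CPM, all above these. Abundant members weigh most in such a sum, and its highest library, Stag1-/- siGLO replicate 2, also had the highest counts of Top2a and Mki67 (30804 and 17029 normalized counts). Wild-type siStag1 libraries had 10248, 10587 and 10646 CPM, also above, though 0 members were called there. Stag2-/- siGLO had 9656, 9415 and 9572 and Stag2-/- siStag1 9809, 9940 and 9983, which overlap the wild-type range. The sums were not tested.

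Changes in single genes were small. No member had a log2 fold change above 1 in size in any comparison, where 7.62% of all genes did in Stag1-/-, 9.69% in Stag2-/- and 15.5% in Stag2-/- siStag1 cells against wild-type siGLO. All 44 members were above the median level of all genes, and this background was not matched for level. In wild-type siStag1, where 0.248% of all genes were called, 1.81% still passed 1 in size. The part of level in the smaller changes of the members, here and in the medians, was not tested. A gene is called here at an adjusted p under 0.1 from edgeR's two-sided quasi-likelihood test, with the Benjamini-Hochberg adjustment over all genes tested. In Stag1-/- siGLO against wild-type siGLO 8 members were called (18.2%), against 20.0% of all genes, and all 8 were higher, against 10.1% of all genes called higher and 9.93% called lower. Without wild-type siGLO replicate 1 or 2 the number of members called was 3, while the share of all genes called was 14.8% and 13%. In Stag2-/- siGLO against wild-type siGLO 9 were called (20.5%, background 28.3%), 2 higher and 7 lower, where 13.9% and 14.4% of all genes were. In Stag2-/- siStag1 against wild-type siGLO 16 were called (36.4%, background 43.9%), 7 higher and 9 lower, against 22.6% and 21.3%. These 3 comparisons share their control libraries. The median absolute log2 fold change was 0.131 for the members against 0.207 for all genes in Stag1-/-, 0.135 against 0.245 in Stag2-/-, and 0.142 against 0.312 in Stag2-/- siStag1 cells. Replicates of the groups did not overlap for 12, 16 and 18 members in these comparisons, which is 27.3%, 36.4% and 40.9% of the list, where 31.7%, 35.7% and 47.3% of all genes did not overlap. The shares of members called were below or near those of all genes and are no result about the members. Deviations of same-numbered libraries correlated over 0.1 in the knockout comparisons, which does not establish that these libraries are pairs. With the replicate number as a block 13 members (29.5%) were called in Stag1-/- siGLO, 11 higher and 2 lower, against 30.6% of all genes (15.3% in each direction). With that block 16 members (36.4%) were called in Stag2-/- siGLO, 8 higher and 8 lower, against 39.4% of all genes (19.9% higher and 19.6% lower).

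**Figure D2:**
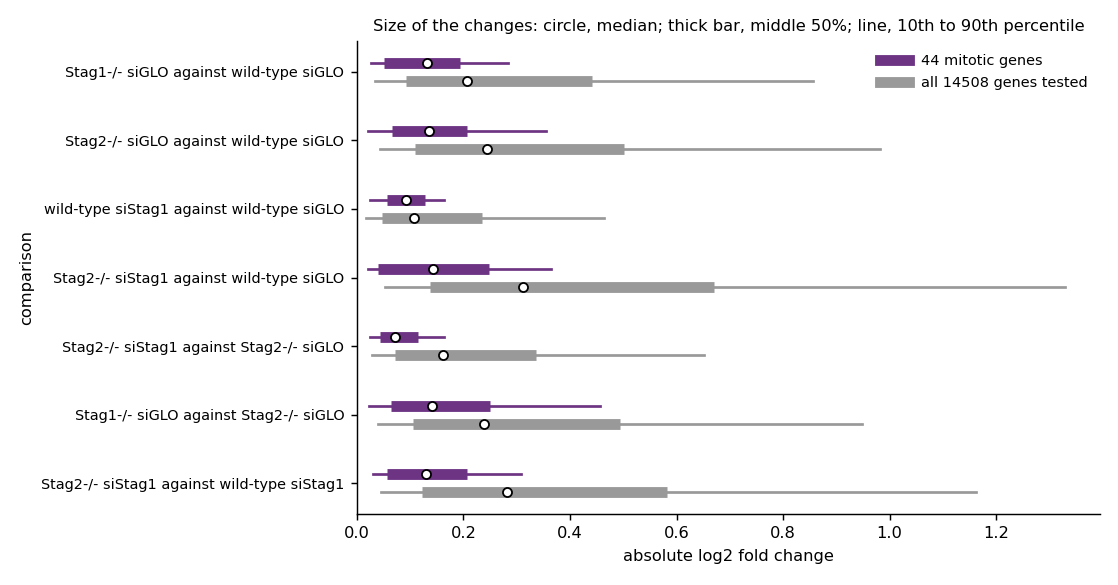
Absolute log2 fold changes of the 44 mitotic genes (purple) and of all 14508 genes tested (grey, not matched for level) in 7 comparisons. Circles mark medians, thick bars the middle 50% and lines the range from the 10th to the 90th percentile, and the members' median lies below that of all genes in each, with 0.142 against 0.312 in Stag2-/- siStag1 cells as the widest gap.

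Over all 8 comparisons 26 of the 44 genes (59.1%) were called at least once, as were 61.4% of all genes, and 18 were never called. The 18 are Ccna2, Ccnb1, Ccnb2 and Cdk1 of the CDK1 module, Aurkb and Birc5 of the passenger complex, Bub1 and Ttk of the checkpoint, Cdca5, Pttg1 and Espl1 of cohesin protection and cleavage, Cenpa, Ndc80, Nuf2 and Spc25 of the kinetochore, Kif11 of the spindle, and Racgap1 and Ect2 of cytokinesis. With the replicate block Bub1, Spc25, Kif11 and Racgap1 were called as well, which makes 68.2% of the members called at least once with or without it, against 71.2% of all genes.

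**Figure D3:**
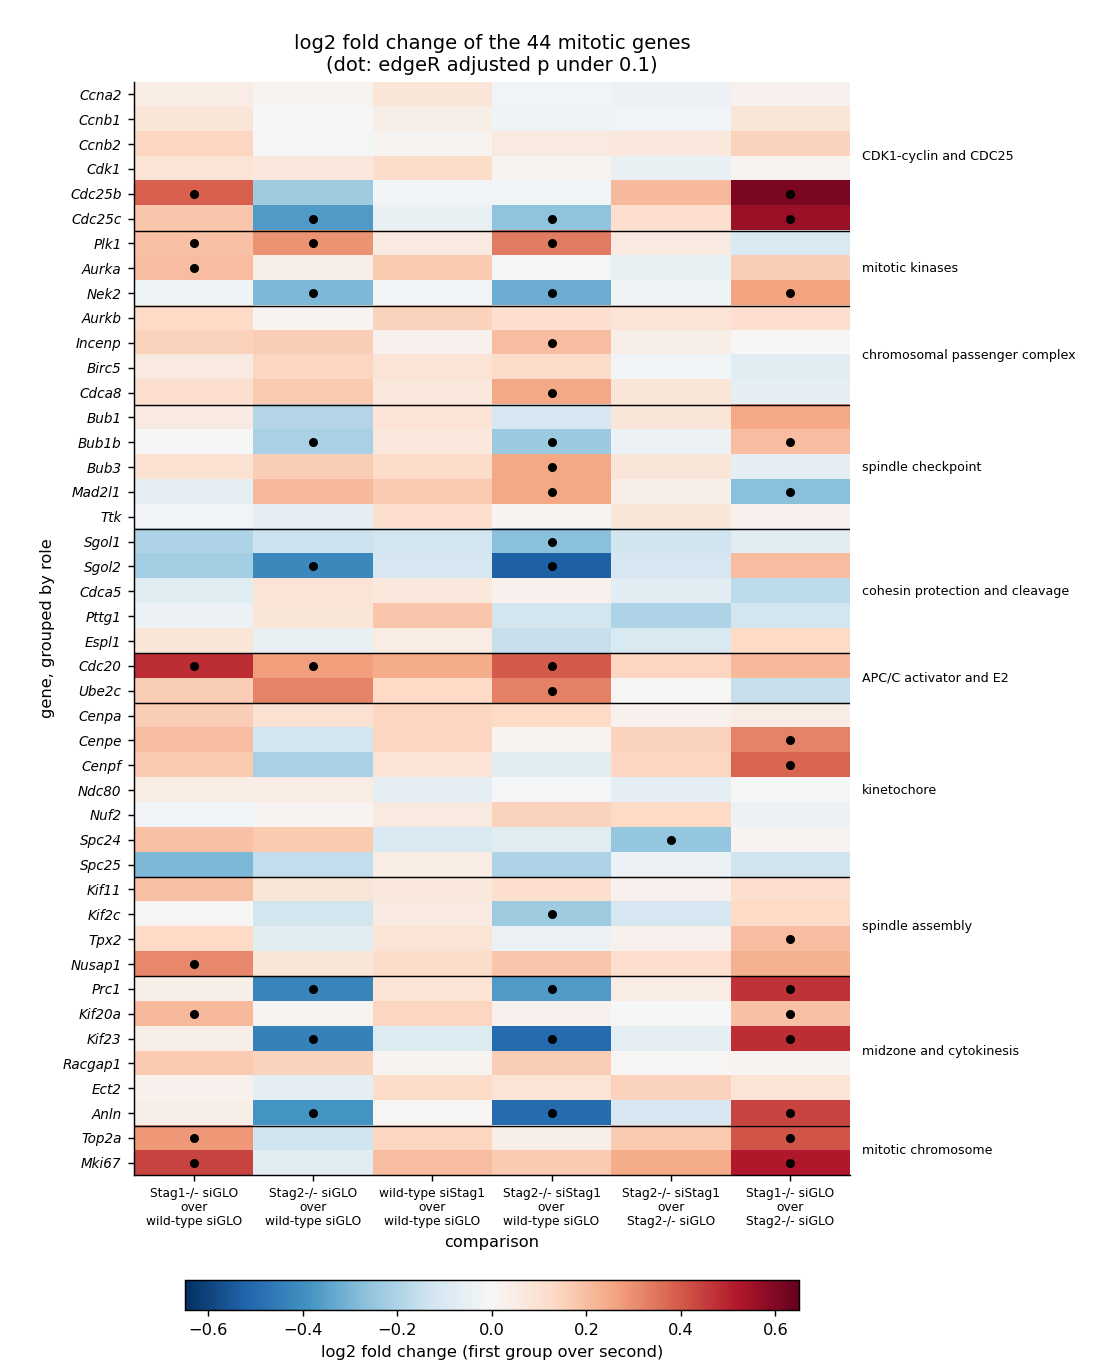
The log2 fold change of each of the 44 genes in 6 comparisons, in rows grouped by role, with the first group over the second, red for higher and blue for lower. A dot marks an edgeR adjusted p under 0.1, and the columns hold 8, 9, 0, 16, 1 and 14 dots from left to right.

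The kinase CDK1 with cyclin B drives entry into mitosis, and the CDC25 phosphatases activate it by removing inhibitory phosphates. Cdk1 had 2930, 2712 and 2876 normalized counts in wild-type siGLO and 3050, 2850 and 2707 in Stag2-/- siStag1 cells, which overlap, with a log2 difference of 0.02 (95% interval -0.19 to 0.22). Ccnb1 had 9257, 8747 and 8171 against 9125, 8487 and 8101, a difference of -0.03 (95% interval -0.21 to 0.16). Both phosphatase genes were called in some condition. Cdc25b, which acts at the start of mitosis at centrosomes, had 603, 658 and 796 normalized counts in wild-type siGLO and 858, 871 and 955 in Stag1-/- siGLO. Its other conditions lay lower, with 607, 671 and 744 in wild-type siStag1, 548, 528 and 680 in Stag2-/- siGLO and 610, 661 and 760 in Stag2-/- siStag1. Only in the Stag1-/- clone were all 3 libraries above all wild-type siGLO libraries, and the log2 fold change there was 0.39 (SE 0.13, edgeR adjusted p = 0.0545). With the replicate block Cdc25b was also called in Stag2-/- siGLO, at -0.23 (SE 0.08, adjusted p = 0.0386). The Stag1-/- call was lost without wild-type siGLO replicate 1 (adjusted p = 0.197), without wild-type siGLO replicate 2 (0.165) and without Stag1-/- siGLO replicate 3 (0.141). Cdc25c had 529, 602 and 591 in wild-type siGLO, 423, 415 and 493 in Stag2-/- siGLO and 481, 490 and 464 in Stag2-/- siStag1. Both Stag2-/- conditions lay below wild type without overlap, by -0.37 (SE 0.10, adjusted p = 0.0177) and -0.26 (SE 0.10, adjusted p = 0.0540) on the log2 scale. Without wild-type siGLO replicate 2 or 3 or Stag2-/- siStag1 replicate 3, the second call was lost, with edgeR adjusted p of 0.165, 0.130 and 0.139.

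Among the mitotic kinases, Plk1 rose and Nek2 fell in Stag2-/- cells. PLK1 phosphorylates cohesin and many spindle proteins, and its gene had 3915, 3905 and 4097 normalized counts in wild-type siGLO against 4932, 4772 and 4824 in Stag2-/- siGLO and 5128, 5005 and 4990 in Stag2-/- siStag1. Stag1-/- siGLO libraries lay between, at 4658, 4267 and 4664. None of these 3 conditions overlapped wild type, and the log2 fold changes were 0.29 (SE 0.07, adjusted p = 0.00773), 0.34 (SE 0.07, adjusted p = 0.000975) and, for Stag1-/-, 0.19 (SE 0.07, adjusted p = 0.0755). The Stag1-/- call was lost without wild-type siGLO replicate 1 or 2 or Stag1-/- siGLO replicate 1 or 3, with adjusted p of 0.175, 0.206, 0.183 and 0.154. Nek2, a centrosome kinase, fell by 0.29 in Stag2-/- siGLO (SE 0.07, adjusted p = 0.00926) and by 0.32 in Stag2-/- siStag1 (SE 0.07, adjusted p = 0.00242). Aurka, the kinase of the spindle poles, was called higher in Stag1-/- siGLO alone among the comparisons with wild-type siGLO, at 0.20 (SE 0.07, adjusted p = 0.0777). Without wild-type siGLO replicate 2 or 3 or Stag1-/- siGLO replicate 1 the adjusted p was 0.241, 0.195 and 0.268.

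The chromosomal passenger complex, with Aurora B, INCENP, survivin (Birc5) and borealin (Cdca8), corrects faulty attachments at centromeres. None of its 4 genes was called in either knockout without the replicate block, and 2 rose in Stag2-/- siStag1 cells. With the block Incenp and Cdca8 were called higher in Stag2-/- siGLO, by 0.16 and 0.17 (SE 0.07 each, edgeR adjusted p = 0.0972 and 0.0941). Incenp, the scaffold of the complex, had 4831, 4342 and 4529 normalized counts in Stag2-/- siStag1 against 3596, 3954 and 4348 in wild-type siGLO. The lowest of the first lies just under the highest of the second, so the groups overlap, and the fitted log2 change was 0.20 (SE 0.08, adjusted p = 0.0494). That call was lost without wild-type siGLO replicate 1 or 2 or Stag2-/- siStag1 replicate 1, at adjusted p of 0.209, 0.120 and 0.159. Cdca8 rose by 0.25 in the same comparison (SE 0.10, adjusted p = 0.0602), with no overlap between the groups, and lost its call without any 1 of the 6 libraries other than wild-type siGLO replicate 3 (adjusted p of 0.106 to 0.192). Aurkb, the kinase subunit, differed by 0.11 (95% interval -0.17 to 0.38).

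The spindle checkpoint genes went in both directions in Stag2-/- siStag1 cells. Mad2l1, whose protein holds CDC20 inactive at unattached kinetochores, had 2523, 2585 and 2277 normalized counts there against 2121, 2179 and 1911 in wild-type siGLO. Stag2-/- siGLO libraries had 2567, 2378 and 2221, and wild-type siStag1 libraries 2234, 2445 and 2307, all above the wild-type siGLO range. Stag1-/- siGLO libraries had 1918, 1865 and 2173, within or below that range. In wild-type siStag1 Mad2l1 was not called (0.17, edgeR adjusted p = 0.834), and 15.5% of all genes did not overlap wild-type siGLO there. The log2 fold change was 0.25 in Stag2-/- siStag1 (SE 0.09, adjusted p = 0.0348), and without wild-type siGLO replicate 3 or Stag2-/- siStag1 replicate 2 the adjusted p was 0.143 and 0.124. Stag2-/- siGLO alone did not pass, at 0.21 (adjusted p = 0.106), but did with the replicate block (adjusted p = 0.0608). Bub3, the partner of BUB1 and BUBR1, also rose by 0.25 in Stag2-/- siStag1 (SE 0.09, adjusted p = 0.0379), but not without wild-type siGLO replicate 3 or Stag2-/- siStag1 replicate 1 (adjusted p = 0.138 and 0.162). Bub1b, which encodes BUBR1 and has the highest level per kb of the 5 checkpoint genes in wild-type siGLO, fell by 0.24 (SE 0.07, adjusted p = 0.0139), and by 0.21 in Stag2-/- siGLO (SE 0.07, adjusted p = 0.0540). Without wild-type siGLO replicate 2 or 3 or Stag2-/- siGLO replicate 2 or 3, the adjusted p of the last was 0.182, 0.119, 0.159 and 0.118.

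Of the 5 genes that protect or cut cohesin, the shugoshin genes Sgol1 and Sgol2 were lower in Stag2-/- siStag1 cells and the other 3 were not called in any comparison. Sgol2 (chr1:57995971-58025899, plus strand, GRCm38) had 2880, 3388 and 3537 normalized counts in wild-type siGLO. It had 2017, 2619 and 2703 in Stag2-/- siGLO and 1994, 2372 and 2428 in Stag2-/- siStag1, all below the lowest wild-type library. It had 2210, 3362 and 2861 in Stag1-/- siGLO and 2949, 3071 and 3049 in wild-type siStag1, which overlap wild type. Sgol2 fell by 0.42 in Stag2-/- siGLO (SE 0.14, adjusted p = 0.0445) and by 0.53 in Stag2-/- siStag1 (SE 0.14, adjusted p = 0.00742). The difference in Stag1-/- siGLO was -0.22 (95% interval -0.51 to 0.08), and with the replicate block it was -0.23 and called (SE 0.08, adjusted p = 0.0615). The Stag2-/- siGLO call was lost without wild-type siGLO replicate 2 or 3 or Stag2-/- siGLO replicate 1, with adjusted p of 0.131, 0.145 and 0.156, while the Stag2-/- siStag1 call passed with each library left out.

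Sgol1, the shugoshin of mitotic centromeres, had 1436, 1438 and 1340 normalized counts in wild-type siGLO, 1337, 1219 and 1274 in Stag2-/- siGLO and 1218, 1183 and 1103 in Stag2-/- siStag1. Its counts were 1043, 1315 and 1303 in Stag1-/- siGLO and 1294, 1367 and 1216 in wild-type siStag1. Every condition that lacked a STAG protein had a mean below wild type, yet Stag2-/- siStag1 was the condition that passed, at -0.27 (SE 0.09, adjusted p = 0.0349). The other log2 differences were -0.20 in Stag1-/- siGLO (adjusted p = 0.167), -0.14 in Stag2-/- siGLO (adjusted p = 0.318) and -0.12 in wild-type siStag1 (adjusted p = 0.999). Without Stag2-/- siStag1 replicate 3 the adjusted p of the called difference was 0.123.

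Cdca5, which encodes sororin, had 1591, 1445 and 1507 normalized counts in wild-type siGLO and 1736, 1519 and 1381 in Stag2-/- siStag1, and the groups overlap. Its log2 difference was 0.03 (95% interval -0.16 to 0.22), with either sign when single libraries were left out. Espl1, which encodes separase, had 4485, 5073 and 6113 against 4927, 4510 and 4667, a difference of -0.15 (95% interval -0.36 to 0.05), but without wild-type siGLO replicate 1 it was -0.25 and passed (adjusted p = 0.0484). Pttg1, which encodes the separase inhibitor securin, had 722, 744 and 822 against 646, 775 and 681, a difference of -0.12 (95% interval -0.43 to 0.19). The intervals of Espl1 and Pttg1 leave room for a fall of the size seen in Sgol1, and that of Cdca5 does not reach it.

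**Figure D4:**
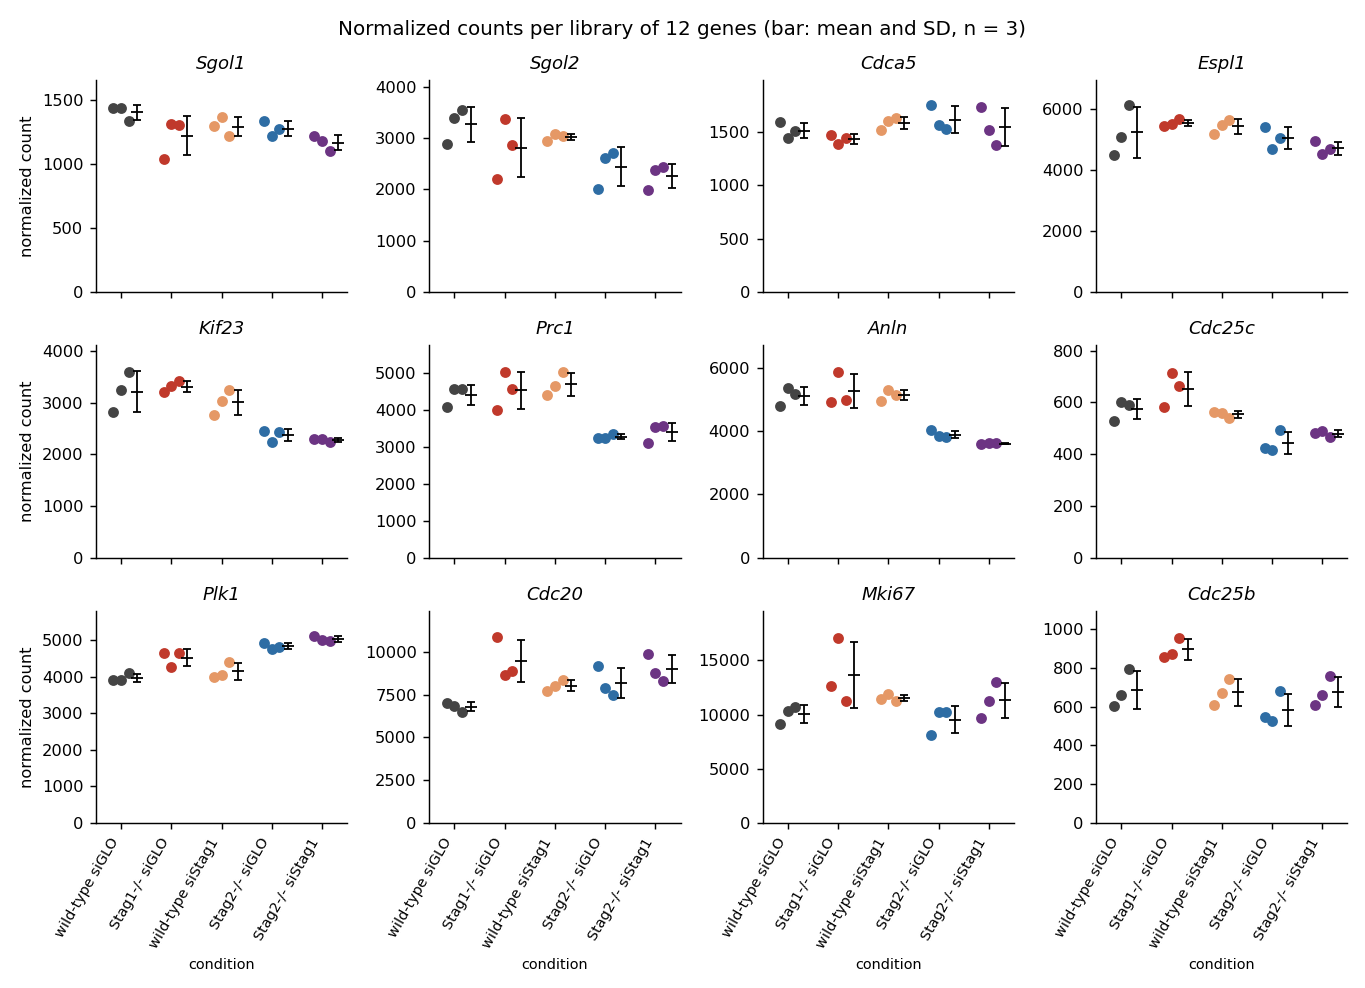
Normalized counts of 12 genes by condition, on linear axes from 0, with a point per library and a bar for the mean and SD (n = 3). Sgol2, Kif23, Prc1 and Anln lie below wild-type siGLO in both Stag2-/- conditions and Plk1 lies above, whereas Cdca5 and Espl1 overlap throughout these conditions, and Cdc25b lies above wild-type siGLO in the Stag1-/- libraries.

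CDC20 and UBE2C carry the APC/C through anaphase, the first as its activator and the second as its ubiquitin-conjugating enzyme. Cdc20 had 7023, 6844 and 6508 normalized counts in wild-type siGLO. It had 10861, 8674 and 8861 in Stag1-/- siGLO, 9156, 7878 and 7479 in Stag2-/- siGLO, 9883, 8758 and 8296 in Stag2-/- siStag1 and 7712, 8002 and 8355 in wild-type siStag1. All 12 libraries with a depleted STAG protein were thus above all 3 wild-type siGLO libraries. Cdc20 rose by 0.48 in Stag1-/- siGLO (SE 0.10, adjusted p = 0.00412), by 0.27 in Stag2-/- siGLO (SE 0.10, adjusted p = 0.0695) and by 0.40 in Stag2-/- siStag1 (SE 0.10, adjusted p = 0.00493), each against the same wild-type libraries. The difference in wild-type siStag1 was 0.24 (95% interval 0.03 to 0.45, adjusted p = 0.687). The call in Stag2-/- siGLO was lost without wild-type siGLO replicate 2 or 3 or Stag2-/- siGLO replicate 1 or 2, with adjusted p of 0.152, 0.190, 0.259 and 0.105. Ube2c had 3146, 3159 and 3666 in wild-type siGLO and 4771, 3875 and 3888 in Stag2-/- siStag1, and rose by 0.33 (SE 0.13, adjusted p = 0.0649). Without Stag2-/- siStag1 replicate 1 that change was 0.22 and its adjusted p 0.233, and without wild-type siGLO replicate 1 or 2 the adjusted p was 0.163 and 0.181. In Stag2-/- siGLO Ube2c was called with the replicate block, at 0.32 (SE 0.11, adjusted p = 0.0384), and not without it (adjusted p = 0.107).

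None of the 7 kinetochore genes was called against wild-type siGLO in any condition without the replicate block. With the block Spc24 was higher in Stag1-/- siGLO by 0.19 (SE 0.07, adjusted p = 0.0610) and in Stag2-/- siGLO by 0.18 (SE 0.07, adjusted p = 0.0708), and Spc25 lower in Stag1-/- siGLO, at -0.30 (SE 0.11, adjusted p = 0.0529). CENP-A marks the centromere, and its gene Cenpa differed by 0.13 in Stag2-/- siStag1 cells (95% interval -0.09 to 0.36). The NDC80 complex, which grips microtubules, is made of the products of Ndc80, Nuf2, Spc24 and Spc25. Differences between these genes were not tested. Spc24 had 1388, 1388 and 1480 normalized counts in wild-type siGLO and 1558, 1615 and 1630 in Stag2-/- siGLO, and with the Stag1 siRNA it had 1241, 1300 and 1420 in wild-type and 1402, 1366 and 1260 in Stag2-/- cells. Spc24 was the 1 member called in Stag2-/- siStag1 against Stag2-/- siGLO, described with that comparison.

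Of the spindle assembly genes, Kif2c, a kinesin that takes microtubules apart at centromeres, was lower in Stag2-/- siStag1 cells. It had 3061, 3302 and 3100 normalized counts in wild-type siGLO, 2503, 2750 and 2830 in Stag2-/- siStag1 and 2890, 2813 and 3002 in Stag2-/- siGLO. Neither Stag2-/- condition overlapped wild type, with -0.23 in Stag2-/- siStag1 (SE 0.07, adjusted p = 0.0189) and -0.12 in Stag2-/- siGLO (adjusted p = 0.243). Kif11, the motor that pushes the poles apart, was called in Stag1-/- siGLO with the replicate block alone, at 0.19 (SE 0.06, adjusted p = 0.0460, and 0.109 without the block). Nusap1, which binds spindle microtubules, was called higher in Stag1-/- siGLO by 0.31 (SE 0.11, adjusted p = 0.0749) although its replicates overlapped those of wild type. Its call was lost without wild-type siGLO replicate 1 or 2 or Stag1-/- siGLO replicate 2 or 3, at adjusted p of 0.231, 0.134, 0.254 and 0.196.

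Of the 6 genes of the central spindle and of cytokinesis 3 fell in Stag2-/- cells, and the other 3 were called there in neither condition without the replicate block. Anln, which encodes the contractile ring scaffold anillin, had 4813, 5367 and 5165 normalized counts in wild-type siGLO, 4027, 3848 and 3808 in Stag2-/- siGLO and 3579, 3617 and 3632 in Stag2-/- siStag1. Kif23, the kinesin of the centralspindlin complex, had 2810, 3241 and 3587 in wild-type siGLO, 2445, 2234 and 2427 in Stag2-/- siGLO and 2290, 2298 and 2240 in Stag2-/- siStag1. Prc1, which bundles the microtubules of the midzone, had 4091, 4582 and 4562, then 3242, 3245 and 3352, then 3110, 3544 and 3555 in the same order of conditions. In all 3 genes every Stag2-/- library lay below every wild-type siGLO library. The log2 fold changes in Stag2-/- siGLO were -0.39 for Anln (SE 0.08, adjusted p = 0.00237), -0.44 for Kif23 (SE 0.09, adjusted p = 0.00278) and -0.43 for Prc1 (SE 0.09, adjusted p = 0.00369). The same values in Stag2-/- siStag1 were -0.50 (SE 0.08, adjusted p = 0.000122), -0.50 (SE 0.09, adjusted p = 0.000431) and -0.37 (SE 0.09, adjusted p = 0.00417). Those calls passed with each library left out in turn. In Stag1-/- siGLO the same genes overlapped wild type and differed by 0.04 each, with 95% intervals of -0.12 to 0.21 for Anln, -0.14 to 0.23 for Kif23 and -0.15 to 0.23 for Prc1. Kif20a, a kinesin of the midzone, was called higher in Stag1-/- siGLO, with 4822, 4555 and 4257 normalized counts against 3929, 4080 and 3806 in wild-type siGLO, which do not overlap (0.21, SE 0.07, adjusted p = 0.0499). That call was lost without wild-type siGLO replicate 1 or 3 or Stag1-/- siGLO replicate 1, at adjusted p of 0.115, 0.143 and 0.171. Racgap1, the partner of KIF23 in centralspindlin, and Ect2, which both recruit and activate RhoA signalling at the cortex, differed in Stag2-/- siStag1 by 0.16 (95% interval -0.01 to 0.34) and 0.09 (95% interval -0.11 to 0.29). With the block Racgap1 was called higher in Stag1-/- siGLO, by 0.17 (SE 0.07, adjusted p = 0.0760), and in Stag2-/- siGLO, by 0.16 (SE 0.07, adjusted p = 0.0942).

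Both genes of the mitotic chromosome group rose in Stag1-/- cells. Mki67, whose protein coats mitotic chromosomes, had 12595, 17029 and 11259 normalized counts in Stag1-/- siGLO against 9121, 10278 and 10689 in wild-type siGLO. Wild-type siStag1 libraries had 11416, 11868 and 11260, Stag2-/- siGLO 8112, 10247 and 10250, and Stag2-/- siStag1 9649, 11281 and 12954. The Stag1-/- libraries were all above wild-type siGLO, with replicate 2 far above the other 2, and the fitted log2 change was 0.44 (SE 0.14, adjusted p = 0.0447). Without that replicate it was 0.25 (adjusted p = 0.227), and without wild-type siGLO replicate 1 or 2 the adjusted p was 0.152 and 0.101. Top2a had 25692, 30804 and 26366 against 21713, 23275 and 23302, and rose by 0.28 (SE 0.08, adjusted p = 0.0216).

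The Stag2 genotype can be read a second time in libraries that the comparison of Stag2-/- siGLO with wild-type siGLO did not use, by comparing Stag2-/- siStag1 with wild-type siStag1 cells. This comparison was added after the data had been seen. Its groups were not matched for Stag1, which had 667, 781 and 629 normalized counts in Stag2-/- siStag1 and 517, 456 and 353 in wild-type siStag1. It called 9 members (20.5%, background 37.5%), 1 higher and 8 lower, where 19.4% and 18.1% of all genes were. Replicates did not overlap for 22 members (50.0%, background 45.3%). Of the 7 members lower in Stag2-/- siGLO, 6 were also called lower here, and these were Kif23, Prc1, Anln, Sgol2, Nek2 and Bub1b. Cdc25c, the seventh, differed by -0.21 (adjusted p = 0.130). Of the 2 higher members, Plk1 was called again, at 0.28 (SE 0.07, adjusted p = 0.00543), and Cdc20 was not, at 0.16 (adjusted p = 0.240). Anln fell by 0.51 (SE 0.08, adjusted p = 0.000153), Prc1 by 0.46 (SE 0.09, adjusted p = 0.00118), Kif23 by 0.40 (SE 0.09, adjusted p = 0.00297) and Sgol2 by 0.42 (SE 0.14, adjusted p = 0.0330), the last with an adjusted p of 0.108 without Stag2-/- siStag1 replicate 1. Aurka and Kif2c were called lower here and not in the siGLO libraries. For Aurka the difference of -0.18 (SE 0.07, adjusted p = 0.0707) was lost with any 1 of the 6 libraries left out, at adjusted p of 0.110 to 0.181. Both comparisons rest on the same Stag2-/- clone, so an effect of the clone and an effect of STAG2 loss cannot be told apart. How often all genes called in the siGLO libraries were called again here was not counted, so the recurrence is no result about the members.

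**Figure D5:**
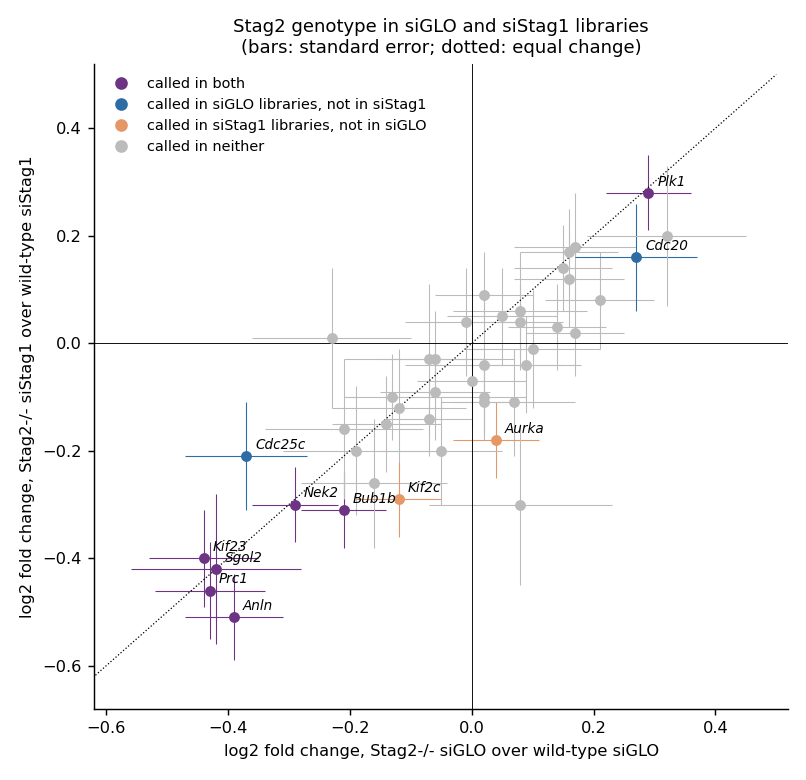
The log2 fold change of each of the 44 genes by Stag2 genotype in siGLO libraries (x axis) and in siStag1 libraries (y axis), with standard errors as bars and a dotted line of equal change. Purple points were called in both, and Anln, Prc1, Kif23 and Sgol2 sit near the line at the lower left, from -0.39 to -0.51, with Plk1 at the upper right.

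Stag1-/- and Stag2-/- cells were also compared directly. In Stag1-/- siGLO against Stag2-/- siGLO 14 members were called (31.8%, background 25.7%), 13 higher and 1 lower, where 12.7% and 12.9% of all genes were. Replicates did not overlap for 19 members (43.2%, background 31.0%). The median log2 difference was 0.111 for the members and -0.0250 for all genes, and the median absolute one 0.141 against 0.238. The largest differences were in the CDC25 genes, with Cdc25b higher by 0.61 (SE 0.13, adjusted p = 0.00362) and Cdc25c higher by 0.56 (SE 0.10, adjusted p = 0.00141) in Stag1-/- cells. Cdc25c had 583, 712 and 662 normalized counts there against 423, 415 and 493 in Stag2-/- siGLO. In the midzone group Kif23, Prc1, Anln and Kif20a, were higher, by 0.48, 0.47, 0.44 and 0.19, as were both chromosome genes. Mki67 differed by 0.52 (SE 0.14, adjusted p = 0.0179) and, without Stag1-/- siGLO replicate 2, by 0.32 (adjusted p = 0.110). The rest were Nek2, Bub1b, Cenpe, Cenpf and Tpx2, between 0.20 and 0.38. The calls of Kif20a, Bub1b, Cenpe, Cenpf and Tpx2 were each lost without any of 2 to 4 single libraries (adjusted p of 0.120 to 0.275), among them Stag1-/- siGLO replicate 2 for all 5. Mad2l1 was the 1 gene lower in Stag1-/- cells, by -0.27 (SE 0.09, adjusted p = 0.0447), a call lost without Stag1-/- siGLO replicate 1 or 2 or Stag2-/- siGLO replicate 1, at adjusted p of 0.117, 0.158 and 0.154. Without Stag1-/- siGLO replicate 2, 7 members were called in all, and 17.2% of all genes. With the replicate block 19 members were called (43.2%, background 37.3%), and Aurka, Bub1, Sgol2, Cdc20 and Nusap1 were higher in Stag1-/- cells as well, by 0.16 to 0.23 (adjusted p of 0.0419 to 0.0927).

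In wild-type siStag1 against wild-type siGLO edgeR called 0 members, where 0.248% of all genes were called (0.103% higher, 0.145% lower), and DESeq2 called 0 as well. At an unadjusted p under 0.05 there were 2 members, against 6.36% of all genes, Cdc20 at 0.24 and Aurka at 0.17 (adjusted p = 0.707). Replicates did not overlap for 7 members (15.9%, background 15.5%), all 7 of them higher in siStag1, as were 7.45% of all genes. The median log2 difference was 0.0740 for the members and -0.00171 for all genes. In Stag2-/- siStag1 against Stag2-/- siGLO 1 member was called (2.27%, background 6.37%), 0 higher and 1 lower, where 2.98% and 3.39% of all genes were. Spc24, the kinetochore gene, fell by 0.25 (SE 0.08, adjusted p = 0.0805), with no overlap between the groups. The call was lost without any of the 3 Stag2-/- siGLO replicates (adjusted p of 0.126, 0.174 and 0.181) or without Stag2-/- siStag1 replicate 2 or 3 (0.171 and 0.321). With the Stag1 siRNA Sgol2 differed by -0.11 in both backgrounds, and Anln by 0.01 in wild-type and -0.11 in Stag2-/- cells, none of them called. The siRNA left more Stag1 counts in Stag2-/- than in wild-type cells, so the 2 siRNA effects rest on unlike depletion. The test of the difference between both siRNA effects called 0 members by edgeR (background 0.159%, with 0.0207% higher and 0.138% lower) and 0 by DESeq2, with 1 member, Aurka, at an unadjusted p under 0.05, against 5.80% of all genes. Its effect was 0.22 lower on the log2 scale in Stag2-/- than in wild-type cells (95% interval of the difference -0.43 to -0.01, adjusted p = 0.843). For Anln, Kif23 and Prc1 the intervals of the difference were -0.35 to 0.11, -0.23 to 0.30 and -0.31 to 0.23.

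Other genes of the cell cycle were grouped in 7 lists of 147 genes, 146 of them tested. Of the 146, 7 were higher (4.79%, against 10.1% of all genes) and 16 lower (11%, against 9.93%) in Stag1-/- siGLO, and 17 higher (11.6%, against 13.9%) and 16 lower (11%, against 14.4%) in Stag2-/- siGLO. The counts in Stag2-/- siStag1 against wild-type siGLO were 25 higher (17.1%, against 22.6%) and 32 lower (21.9%, against 21.3%). In wild-type siStag1 0 were higher and 1 lower (0.685%, against 0.145%), and within Stag2-/- cells the siRNA raised 1 (0.685%, against 2.98%) and lowered 9 (6.16%, against 3.39%). Between both knockouts, where the members called were mostly higher in Stag1-/- cells, 15 of the 146 were higher (10.3%, against 12.7%) and 21 lower (14.4%, against 12.9%). The lists went different ways. Of the 25 other spindle and cytokinesis genes 6 were higher and 0 lower, of the 35 other kinetochore and centromere genes 1 and 8, and of the 18 APC/C genes 0 and 3. With the replicate block 48 of the 146 were called in Stag1-/- siGLO, 59 in Stag2-/- siGLO, 3 in wild-type siStag1, 17 with the siRNA in Stag2-/- cells and 55 between both knockouts, where 30.6%, 39.4%, 1.63%, 14.1% and 37.3% of all genes were. Mybl2, which encodes the B-MYB subunit that joins MuvB on CHR promoters, had 14992, 14115 and 14590 normalized counts in wild-type siGLO, 12818, 11660 and 11608 in wild-type siStag1, 12057, 9049 and 9732 in Stag2-/- siGLO and 6611, 5499 and 4963 in Stag2-/- siStag1. It fell by 0.50 in Stag2-/- siGLO (SE 0.11, adjusted p = 0.00529) and by 1.36 in Stag2-/- siStag1 (SE 0.11, adjusted p = 2.94e-07), and by 0.85 between these (SE 0.11, adjusted p = 0.000357). In Stag1-/- siGLO its 16626, 14612 and 14388 counts overlapped wild type. In wild-type siStag1 Mybl2 was called with the replicate block, at -0.28 (SE 0.07, adjusted p = 0.0879), and not without it (adjusted p = 0.662). Foxm1, the forkhead factor of the same promoters, had 1262, 1403 and 1503 in wild-type siGLO against 1717, 1616 and 1665 in Stag1-/- siGLO and 1542, 1590 and 1891 in Stag2-/- siStag1. Foxm1 rose by 0.26 and 0.27 (SE 0.10 each, adjusted p = 0.0891 and 0.0423), and the first of these calls was lost without wild-type siGLO replicate 1 or 2 or any of the 3 Stag1-/- siGLO replicates, at adjusted p of 0.118 to 0.281. The second was lost without wild-type siGLO replicate 1 or Stag2-/- siStag1 replicate 3, at adjusted p of 0.162 and 0.212.

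Cdkn1a, the p21 inhibitor, had 731, 973 and 1150 normalized counts in wild-type siGLO, 578, 591 and 720 in Stag1-/- siGLO and 622, 571 and 420 in Stag2-/- siGLO. It fell by 0.59 (SE 0.18, adjusted p = 0.0356) and by 0.82 (SE 0.18, adjusted p = 0.00463), and the first call was lost without wild-type siGLO replicate 3 or Stag1-/- siGLO replicate 1 or 2, at adjusted p of 0.156, 0.129 and 0.107. In Stag2-/- siStag1 its 931, 648 and 699 counts overlapped wild type (adjusted p = 0.169), while without wild-type siGLO replicate 1 or Stag2-/- siStag1 replicate 1 the difference of -0.48 or -0.50 passed (adjusted p = 0.0456 and 0.0432). Wee1, the kinase that restrains CDK1, was not called against wild-type siGLO, with 0.21 in Stag1-/- (adjusted p = 0.102, and 0.0241 with the replicate block) and 0.12 in Stag2-/- siStag1 (adjusted p = 0.290). Ccnd3, the D-type cyclin of G1, was called lower against wild-type siGLO in Stag1-/- siGLO (-0.62), Stag2-/- siGLO (-0.96) and Stag2-/- siStag1 (-1.89). It was also the 1 listed gene called lower in wild-type siStag1 without the block, by 0.52 (SE 0.09, adjusted p = 0.0348, and 0.119 to 0.218 without any 1 of 5 of the 6 libraries), and fell by 0.93 with the siRNA in Stag2-/- cells (SE 0.09, adjusted p = 2.17e-05). In that comparison Cdkn1c, the p57 inhibitor, rose by 0.91 (SE 0.19, adjusted p = 0.0129), and the cytokinesis gene Cep55, the centromere gene Cenpm and the replication gene Mcm10 fell by 0.52, 0.55 and 0.41 (adjusted p = 0.00884, 0.0547 and 0.0447). The Cenpm and Mcm10 calls were lost without any 1 of 3 and of 4 libraries, at adjusted p of 0.105 to 0.237.

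The members that fell and the members that rose both held the CHR letters. Of the members called in Stag2-/- siStag1 against wild-type siGLO, 6 of the 8 lower members with a promoter and 5 of the 6 higher members with one had a match, beside 17 of the 23 that were not called. Sgol2 and Nek2 fell and had no match. In Stag2-/- siGLO the 7 lower members had a median of 7007 bp of exon (4275 to 9063) and the 2 higher ones 1868 and 2199 bp. The median in Stag2-/- siStag1 was 4919 bp for the 9 lower members (3810 to 9063) and 4329 bp for the 7 higher ones (1868 to 8390). Across the 44 genes the log2 fold change in Stag2-/- siGLO correlated with log2 exon length at r = -0.43 (Spearman -0.37), against 0.02 over all 14403 genes with a length, where genes of 1 library share its depth and RNA quality and are not independent replicates. The same r was -0.25 (Spearman -0.14, all genes 0.08) in Stag2-/- siStag1 against wild-type siGLO, -0.27 (Spearman -0.21, all genes 0.10) in Stag2-/- siStag1 against wild-type siStag1, and 0.40 (Spearman 0.37, all genes 0.03) in Stag1-/- siGLO against Stag2-/- siGLO. In Stag1-/- siGLO against wild-type siGLO it was 0.00 (Spearman -0.02, all genes 0.05). The part of length in the calls was not tested.

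For some members the counts cannot be assigned with certainty, because the strand setting of the counting is not given in the sources used here. Sgol2 shares 2455 of its 7007 bp of exon with Kctd18 on the opposite strand, and Kctd18 differed by 0.28 in Stag2-/- siStag1 against wild-type siGLO (adjusted p = 0.158), where Sgol2 fell. Prc1 shares 911 of 8225 bp with Rccd1, which differed by -0.13 (adjusted p = 0.601), Ube2c shares 592 of 2600 bp with Tnnc2 and Kif20a 1271 of 4338 bp with Cdc23. In Kif23 and Anln no annotated overlap with a counted gene was found. Ccnb1 shares stretches of at least 150 bp, the length of a read, with pseudogenes, so its counts are uncertain. The same doubt holds for Cdc25c, Nek2, Racgap1 and Plk1. They share 474, 149, 92 and 9 such stretches with Gm3550, Gm38037, AC148020.1 and Gm44985, which were not counted in the files.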

How the data were processed

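RNA of 15 libraries was measured, 3 for each of 5 conditions, and samples were grouped by the genotype and siRNA in the labels. The authors deposited whole-number counts per gene for each library, from paired-end reads of polyadenylated RNA aligned to mm10 with STAR. The submitters' processing notes also name DESeq2. The counter, its annotation and its strand setting are not given in the sources used here. The 4 summary lines at the head of each file were left out of library sizes (unmapped 4.01 to 4.79%, multimapping 3.80 to 4.50%, no feature 9.78 to 13.0%, ambiguous 1.92 to 2.08%).

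Counts were fitted with edgeR 4.0.16 in R 4.3.3, with filterByExpr (minimum count 10, minimum total 15), TMM scaling, 1 coefficient per group over all 15 libraries and the two-sided quasi-likelihood test, adjusted after Benjamini and Hochberg over 14508 genes and called under 0.1. Normalized counts are counts scaled to a common library size. The scripts were tested on simulated data. Tables and plots used Python 3.11.15 with pandas 2.3.3, numpy 2.4.6 and matplotlib 3.10.9. Exon lengths came from GENCODE on the same build, and 21777 of 23412 gene names matched by symbol and 1278 by an older symbol. Alternatives were DESeq2 1.42.0, other scalings and filters, a stricter adjusted p of 0.05, a fit on the compared libraries alone, a replicate block and each library left out. Replicate numbers were checked for pairing by the correlation of deviations from the group means, over genes with at least 10 counts in every library. It was over 0.1 in each of the 3 same-numbered pairs of both knockouts against wild-type siGLO (lowest 0.203 for Stag1-/- and 0.104 for Stag2-/-), of wild-type siStag1 against wild-type siGLO (0.214), of Stag2-/- siStag1 against Stag2-/- siGLO (0.278) and of both knockouts (0.246), and not in Stag2-/- siStag1 against either wild-type condition (0.0359 and -0.0774). The labels do not say what a number shares, so the pairing is read from the data and is not established. Some libraries of different number correlated as well. Stag2-/- siGLO replicate 3 had 0.42 with Stag2-/- siStag1 replicate 2, above the 0.278 of the same-numbered pair of replicate 2. The members and lists were chosen with earlier results of these data known. Values in every library were given for the 5 genes of cohesin protection and cleavage, for up to 3 called members at each end of the log2 fold changes in each comparison, for the highest and lowest level, and for the called member of each remaining role group with the smallest adjusted p. Others were named after their values were seen.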

Additional observations from a re-analysis of the deposited data

How the results depend on the processing

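The share of all genes called under the same setting is given in parentheses after each number of members. In Stag1-/- siGLO against wild-type siGLO the 8 calls became 4 (14.1%) at an adjusted p under 0.05, 4 (20.5%) with only the libraries compared, and 3 to 8 (13 to 18.7%) with 1 library left out. With 1 library left out, the 9 calls in Stag2-/- siGLO ranged from 6 to 10 (17.1 to 27.1%), the 16 in Stag2-/- siStag1 from 12 to 15 (35.1 to 42.3%) and the 14 between both knockouts from 7 to 14 (17.2 to 23.9%), and the last were 8 (17.5%) with only the libraries compared. The 1 call in Stag2-/- siStag1 against Stag2-/- siGLO was 0 at an adjusted p under 0.05 (3.78%), with library size alone (6.28%), with no filter (4.35%) and with only the libraries compared (1.61%), and 0 to 1 with 1 library left out (2.83 to 10.1%). In Stag2-/- siStag1 against wild-type siStag1 the 9 calls became 14 (38.9%) with only the libraries compared and 7 to 9 (28.8 to 36.2%) with 1 library left out. Wild-type siStag1 and the difference between both siRNA effects had 0 calls in each setting tried. The log2 difference of Cdca5 in Stag2-/- siStag1 against wild-type siGLO, 0.03, was -0.01 without wild-type siGLO replicate 2 and -0.06 without Stag2-/- siStag1 replicate 1, and 0.10 at most with another library left out. The cause of these changes was not tested, other than that leaving out libraries leaves fewer samples.

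With the replicate number as a block 13 members were called in Stag1-/- siGLO (11 higher, 2 lower), 16 in Stag2-/- siGLO (8 and 8), 18 in Stag2-/- siStag1, 19 between both knockouts, 1 in Stag2-/- siStag1 against Stag2-/- siGLO, 0 in wild-type siStag1, 0 in the difference of siRNA effects and 17 in Stag2-/- siStag1 against wild-type siStag1. All genes called with the block were 30.6%, 39.4%, 53.7%, 37.3%, 14.1%, 1.63%, 0.951% and 47.5% in that order. No member called without the block was lost with it in the 5 comparisons where every same-numbered pair correlated over 0.1. Beside the calls given with the genes, the block also called Cdkn1a in Stag2-/- siStag1 against Stag2-/- siGLO (0.50, edgeR adjusted p = 0.0917), and it changed no other call of a member there. The difference of siRNA effects rests on a pair of such comparisons, and there the block called Mybl2 (-0.57, adjusted p = 0.0151, against -0.58 and 0.336 without it). In Stag2-/- siStag1 against either wild-type condition not every same-numbered pair correlated over 0.1. Deviations of same-numbered libraries had a mean correlation of 0.284 over 30 pairs against -0.139 over 60 pairs of different number. Deviations from a group mean cancel within the group, so a positive first mean makes the second negative. The second is thus no separate contrast.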
